A study of Mus musculus with 60 samples.

Results

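The genes described here are 10 factors of maternal mRNA deadenylation and decay in the mouse embryo. They were chosen by name: every row of the deposited table of 27238 genes whose Ensembl identifier belongs to Btg4, Zfp36l2, Pabpn1l, Cnot6, Cnot6l, Cnot7, Cnot8, Cnot1, Pan2 or Pan3 was taken, and all 10 were found. The rule used names and no measured value, but the members were chosen with earlier results of these data known. Single BDF1 mouse embryos, and cells that served as nuclear donors, were profiled by RNA-seq in 20 groups of 3 libraries, 60 libraries in all.

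The in vivo embryos came from superovulated C57BL/6 females mated with DBA2 males and were taken at 6 stages, as 1-cell, 2-cell, 4-cell and 8-cell embryos, as morulae and at the stage labelled blastula. NTC embryos were made by transferring the nucleus of a cumulus cell into an enucleated oocyte, and NTM embryos by transferring the nucleus of a mouse embryonic fibroblast. Both nuclear transfer (NT) types were artificially activated, exposed to Scriptaid, a histone deacetylase inhibitor, and grown in vitro through the same 6 stages. The donor cells, CC for cumulus cells and MEF for serum-starved embryonic fibroblasts, made up the other 2 groups. Nuclear transfer, activation, the inhibitor and culture were shared by all NT embryos and absent from all in vivo embryos, so their parts in a difference between the types cannot be told apart. The oocytes used for transfer came from BDF1 females, whereas those of the in vivo embryos came from C57BL/6 females, and this strain difference in the source of the maternal mRNAs is likewise tied to the type. Embryos were picked by morphology, and the labels say that each stage was collected in at least 3 separate experiments.

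A fully grown oocyte is loaded with stored mRNAs that must be cleared as the embryo takes over transcription. Clearance usually begins with removal of the poly(A) tail by the CCR4-NOT complex, in which CNOT1 is the scaffold, CNOT6 or CNOT6L is one nuclease and CNOT7 or CNOT8 the other, and PAN2-PAN3 is a separate deadenylase thought to trim long tails first. BTG4 bridges CCR4-NOT to the translation machinery and is needed for maternal mRNA decay in mice, PABPN1L is a poly(A)-binding adaptor that recruits BTG4, and ZFP36L2 leads CCR4-NOT to AU-rich mRNAs.

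The start sites of Btg4, Pabpn1l and Cnot6l are printed because the mRNAs of these members were high at the 1-cell stage and low by the 4-cell stage and their promoters differ in base composition. Each run holds 250 bases before and 50 bases after the start site from RefSeq (build GRCm38.p6), with CpG pairs in capitals. The Btg4 window was chr9:51115751-51116050 on the plus strand, that of Pabpn1l chr8:122622686-122622985 on the minus strand, and the first of 3 listed for Cnot6l chr5:96161941-96162240 on the minus strand.
Btg4: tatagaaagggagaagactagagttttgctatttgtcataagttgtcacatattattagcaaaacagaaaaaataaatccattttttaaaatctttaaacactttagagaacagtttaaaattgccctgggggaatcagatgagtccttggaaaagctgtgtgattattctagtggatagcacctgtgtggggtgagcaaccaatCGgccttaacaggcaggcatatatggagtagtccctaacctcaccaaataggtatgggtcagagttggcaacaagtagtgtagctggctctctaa
Pabpn1l: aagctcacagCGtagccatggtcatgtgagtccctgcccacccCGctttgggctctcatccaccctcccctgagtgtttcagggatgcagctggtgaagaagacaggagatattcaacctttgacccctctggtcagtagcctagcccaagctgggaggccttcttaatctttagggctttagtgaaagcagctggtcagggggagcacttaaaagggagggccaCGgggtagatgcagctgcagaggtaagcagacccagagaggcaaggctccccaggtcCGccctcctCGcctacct
Cnot6l: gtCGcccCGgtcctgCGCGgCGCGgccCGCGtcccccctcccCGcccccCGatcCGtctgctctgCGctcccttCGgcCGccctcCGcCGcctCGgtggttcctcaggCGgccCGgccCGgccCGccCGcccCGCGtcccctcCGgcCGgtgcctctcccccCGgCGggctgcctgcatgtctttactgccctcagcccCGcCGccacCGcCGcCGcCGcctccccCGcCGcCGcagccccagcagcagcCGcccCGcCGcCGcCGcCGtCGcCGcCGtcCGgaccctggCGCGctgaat

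The Btg4 promoter held 1 CpG at a GC content of 39.0%, and that of Pabpn1l held 5 CpGs at 57.7%. The Cnot6l promoter held 49 CpGs at 82.7%, against a median of 7 CpGs and 52.7% GC over 27025 promoters of the same length. Windows were found for 7 of the 10 members. Pan2 had 15 CpGs, Pan3 31 and Cnot6 33, while Cnot8 had 4 start sites with 3 to 30 CpGs. The E-box, CANNTG, occurred at 2 places in the Btg4 window and at 4 in that of Pabpn1l, a motif present in 72.1% of all promoters and so no mark of these genes. The NOBOX element TAATTG, searched on both strands, was in none of the 12 windows of members and in 8.15% of all promoters.

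Short stretches near the annotated ends of the transcripts are printed because elements near the 3′ end are known to direct the lengthening or shortening of poly(A) tails. Motifs were searched on the transcript strand in the last 100 bases of 3′ ends annotated in GENCODE M21 (build GRCm38), and the motif is in capitals. The cytoplasmic polyadenylation element (CPE, TTTTAT or TTTTAAT) was found in Btg4 at chr9:51119797-51119826, in Cnot1 at chr8:95719504-95719533, in Pan2 at chr10:128321324-128321353 and in Pan3 at chr5:147548460-147548489. An AU-rich core, TATTTAT, lay in Cnot6 at chr11:49671565-49671594.
Btg4: agataaatccctTTTTATgtctttttaaaa
Cnot1: aagatgtattgaTTTTATatatgtgagtac
Pan2: aaataaaagtatTTTTATctcattagaaaa
Pan3: atagcagtattTTTTAATaaagaattgcag
Cnot6: agctagtattaTATTTATatacagggtctc

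Over 19493 genes with such a window, 17.7% held a CPE and 4.29% the AU-rich core. Pan2 held 3 CPE matches, of which the one nearest its end is shown, and the window of Pabpn1l or Cnot6l held neither of these motifs. No complete 3′ end was annotated for Cnot8. In Pan3 the printed match overlapped a poly(A) signal, AATAAA. Such a signal (AATAAA or ATTAAA) was in 77.5% of all windows, but not in those of Btg4, Cnot1, Pabpn1l and Cnot6l.

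The libraries held 5294167 (NTC 2-cell library 3) to 47830132 reads (MEF library 3) on genes, recovered from the steps of the RPKM values, which are read numbers scaled by exon length and by library depth. Between 7730 and 14582 genes were above 0. The mitochondrial share of reads ran from 2.19% to 64.2% and moved with stage: it was 5.68 to 8.87% at the 4-cell stage in vivo, against 31.6 to 34.7% (NTC) and 29.6 to 40.4% (NTM), and 32.1 to 45.05% at the 8-cell stage in vivo. Fibroblast markers marked the MEFs, with all 7 at 1 RPKM or more. Of the 7 cumulus markers 6 reached that level in the CCs, but 5 did so in the MEFs too, and their sums did not separate the donors. An RPKM share says nothing of RNA per embryo: more of one mRNA and less of the rest cannot be told apart, nor can fewer cells from less RNA per cell. The primer for reverse transcription is not given in the sources used here, so a shortened tail and the loss of an mRNA cannot be told apart in these values either.

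**Figure D1:**
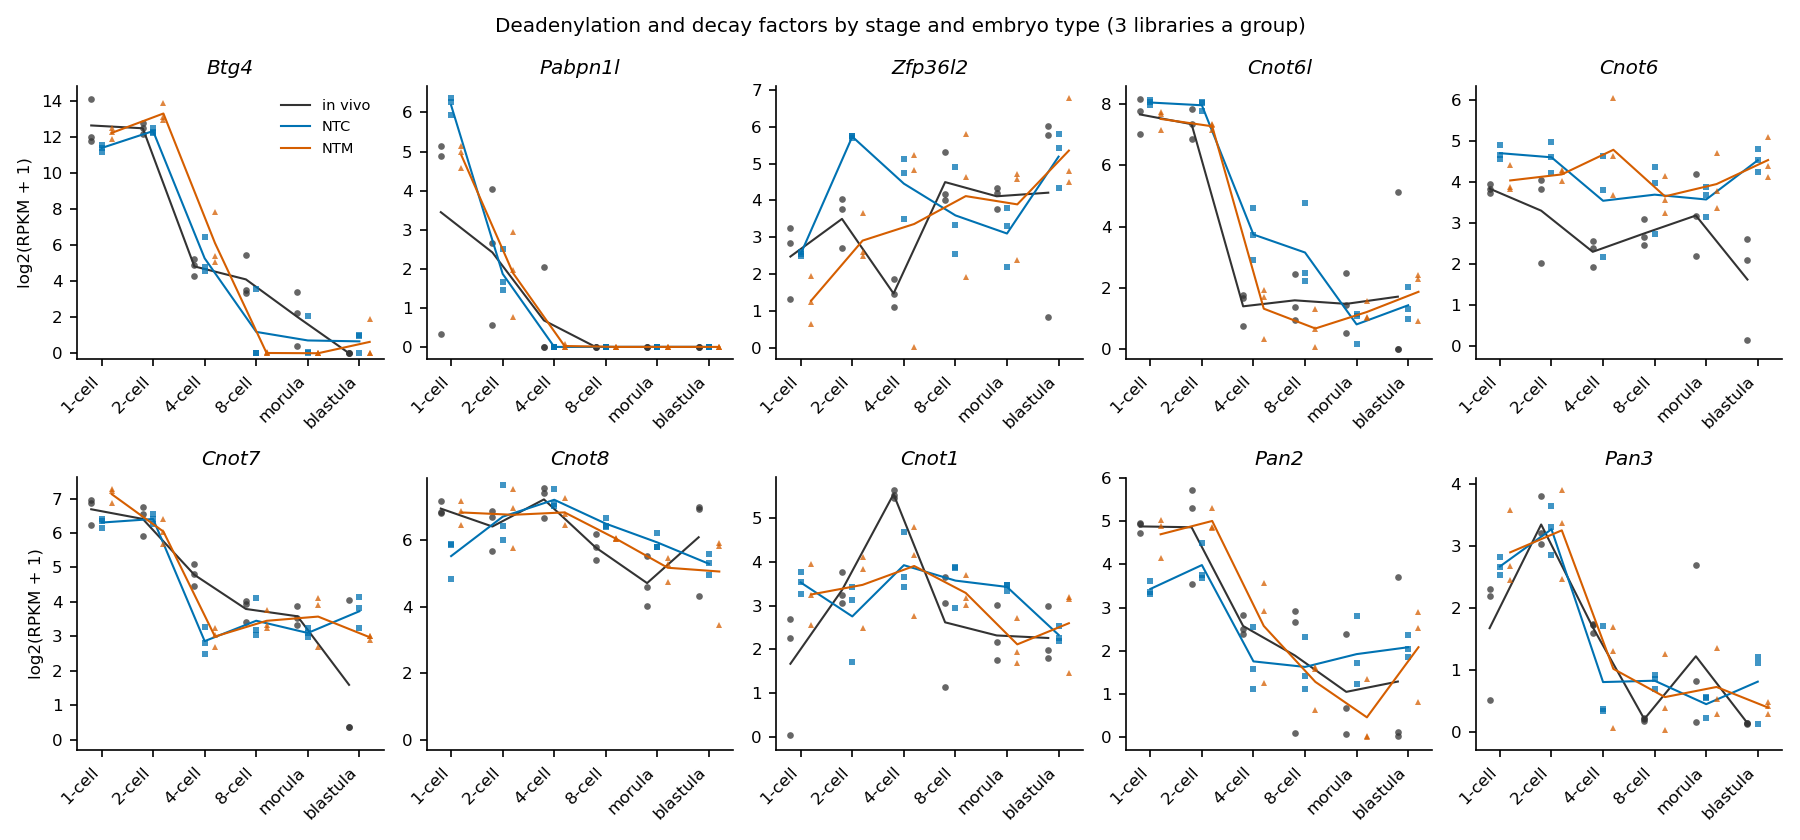
Level of each of the 10 factors as log2(RPKM + 1) at 6 stages, with a point for each library, a line through the group means, and colours for in vivo, NTC and NTM embryos. Btg4, Cnot6l and Cnot7 sat higher in every 1-cell and 2-cell library than in every later library of the same type, while Cnot8 and Cnot6 kept overlapping ranges.

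Among the adaptors, Btg4 was one of the most abundant mRNAs of the early embryo. It ranked from 4 to 10 among all genes by RPKM in the 18 libraries of the 1-cell and 2-cell stages and took 0.308 to 2.37% of the reads there. In vivo 1-cell libraries 1, 2 and 3 held 18079.9, 4209 and 3536 RPKM, and the in vivo 2-cell libraries 4693, 7100.02 and 5831 RPKM. Library 1 of the in vivo 1-cell group stood apart, here and for Pabpn1l, Cnot1 and Pan3 below. It had 13.4% mitochondrial reads against 4.71 and 6.26% in libraries 2 and 3, 9491 genes above 0 against 12187 and 12593, and an oocyte marker sum of 546 RPKM against 1942 and 1520.4 RPKM. The NTC 1-cell libraries held 2751, 3067 and 2349 RPKM and the NTC 2-cell libraries 5764, 4844 and 5047 RPKM. NTM 1-cell libraries held 5877, 3875 and 5032 RPKM and NTM 2-cell libraries 7898, 8897 and 15246 RPKM. The 2-cell values of NTC and NTM embryos all exceeded the 1-cell values of the same type, whereas the in vivo ranges overlapped.

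From the 2-cell to the 4-cell stage Btg4 fell in all 3 types. The in vivo 4-cell libraries held 36.95, 29.5 and 18.7 RPKM, the NTC 4-cell libraries 22.3, 27.0 and 87.6 RPKM, and the NTM 4-cell libraries 42.0, 231.6 and 32.9 RPKM. No 4-cell library came near any 2-cell library. The mean was 207-fold lower in vivo (log2 fold change −7.67, SE 0.34, adjusted p = 1.77e-05), 114-fold lower in NTC embryos (−7.07, SE 0.47, adjusted p = 7.91e-05) and 105-fold lower in NTM embryos (−7.20, SE 0.69, adjusted p = 4.88e-04). These and all later adjusted p-values come from limma on log2(RPKM + 1), with Benjamini-Hochberg adjustment over all tested genes. A call needed an adjusted p under 0.05 together with a change of 1 or more, in either direction, on the log2 scale. NTM 4-cell library 2, with the highest Btg4, also had the highest sum of the oocyte markers Zp3, Gdf9 and Bmp15 of that group, 199 RPKM against 38.5 and 21.8. Without that library the change was −8.07 (adjusted p = 8.84e-04).

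Residual Btg4 was lower in NTM than in in vivo embryos at the 8-cell stage. In vivo 8-cell libraries held 42.6, 10.6 and 9.07 RPKM, NTC 8-cell libraries 10.8, 0 and 0 RPKM, and NTM 8-cell libraries a single read, 0.0298 RPKM, in library 1 and none in the others. The NTM ranges lay below every in vivo value. The fitted difference of NTM from in vivo was −4.09 (SE 0.65, adjusted p = 0.0164), and that of NTM 8-cell from NTM 4-cell embryos −6.11 (SE 0.78, adjusted p = 0.0126). Both rest on a group with 1 read, so their size depends on the pseudocount and is no bound on the fold. Each call was lost when any NTM 8-cell library was left out, with adjusted p from 0.0636 to 0.106 and from 0.0960 to 0.167, and without the filter on low values, at 0.119 and 0.195. Btg4 was 0 in all 3 in vivo blastula libraries after 3.68, 9.52 and 0.335 RPKM at the morula stage, at least 16.9-fold lower against a floor of 3 reads in a library. Its change at that step was not called.

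The donor cells held a little Btg4 as well. CC libraries held 6.12, 5.31 and 5.003 RPKM and MEF libraries 4.83, 4.88 and 0 RPKM. The oocyte marker sum in the same libraries was 3.15, 2.43 and 2.56 RPKM in CCs and 2.28, 2.26 and 0 RPKM in MEFs, so MEF library 3 was at 0 for both. The part of other oocyte RNA in these Btg4 values was not tested.

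Pabpn1l was an mRNA of the 1-cell embryo that was nearly gone by the 4-cell stage. NTC 1-cell libraries held 60.0, 81.1 and 75.7 RPKM against 4.65, 1.75 and 2.14 RPKM at the 2-cell stage. NTM 1-cell libraries held 30.6, 23.0 and 34.1 RPKM against 2.89, 6.71 and 0.703 RPKM. Every NT 1-cell library lay above every 2-cell library of its type. The fall was 25.4-fold in NTC embryos (log2 fold change −4.31, SE 0.36, adjusted p = 4.21e-04) and 8.52-fold in NTM embryos (−3.01, SE 0.61, adjusted p = 0.0190), and the NTM call was lost when any 1 of the NTM 1-cell libraries was left out (adjusted p from 0.0822 to 0.122) and without the filter (0.0612).

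In vivo, the 1-cell libraries held 0.250, 28.3 and 34.5 RPKM of Pabpn1l, where the first value is 3 reads, and the 2-cell libraries 5.33, 15.4 and 0.474 RPKM. These ranges overlapped and the change was not called. At the 4-cell stage 1 in vivo library held 3.10 RPKM and the others 0. All 12 NTC libraries from the 4-cell stage on were at 0, as were 11 of the 12 NTM and 11 of the 12 in vivo libraries, and the NTM exception, a 4-cell library, had 1 read. A count of 0 allowed up to 0.0994 to 0.454 RPKM in these libraries at 3 reads. In NTC embryos the 2-cell to 4-cell fall was at least 10.4-fold and was called (−1.87, SE 0.50, adjusted p = 0.0194), though not without NTC 4-cell library 1 or 3 (adjusted p = 0.0540 and 0.0560).

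Zfp36l2 was low at the 1-cell stage in all 3 types. Its highest group mean was at the blastula stage in vivo and in NTM embryos and at the 2-cell stage in NTC embryos, where the blastula mean came next. NTC 1-cell libraries held 4.65, 4.82 and 5.04 RPKM and NTC 2-cell libraries 52.6, 50.9 and 52.9 RPKM. The ranges were narrow and far apart, and Zfp36l2 rose 10.8-fold (log2 fold change 3.19, SE 0.27, adjusted p = 4.25e-04). In vivo the called changes lay at later steps. The in vivo 1-cell libraries held 1.49 to 8.54 RPKM, and the 2-cell mean was 2.05-fold higher, a change that was not called. A test of the difference between the NTC and in vivo steps from 1 to 2 cells called no member. In vivo 2-cell libraries held Zfp36l2 at 5.52, 12.5 and 15.4 RPKM. The 4-cell libraries held 1.75, 2.60 and 1.15 RPKM, and the 8-cell libraries 39.1, 14.98 and 16.9 RPKM. From the 2-cell to the 4-cell stage it fell (−2.03, SE 0.47, adjusted p = 0.00876) and from there to the 8-cell stage it rose (3.03, SE 0.47, adjusted p = 0.00172). One fit over all 20 groups gave the fall an adjusted p of 0.0881.

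NTM embryos varied most in Zfp36l2. Their 2-cell libraries held 5.03, 4.57 and 11.6 RPKM and their 4-cell libraries 27.3, 36.6 and 0.0154 RPKM, the last being 1 read. No step of NTM embryos was called for this gene. Blastula libraries were also wide apart, at 53.4, 63.8 and 0.789 RPKM in vivo, 19.3, 42.2 and 54.3 RPKM in NTC and 26.6, 108 and 21.7 RPKM in NTM embryos. The NTC rise from the morula, where the libraries held 12.9, 3.59 and 8.86 RPKM, was called (2.09, SE 0.52, adjusted p = 0.0441) but was lost whichever library of the comparison was left out, at adjusted p from 0.0591 to 0.142. Exon bases of Zfp36l2 overlap an antisense transcript over 105 bases, and whether reads were counted by strand is not given in the sources used here.

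The catalytic subunits came in pairs of paralogs, and in each pair 1 member fell in all 3 types from the 2-cell to the 4-cell stage while the other had no called change there. Cnot6l was the more abundant of the CCR4-type nucleases at the 1-cell and 2-cell stages. Its in vivo 1-cell libraries held 128, 218 and 287 RPKM, its 2-cell libraries 225, 162 and 114 RPKM, and its 4-cell libraries 2.18, 2.44 and 0.695 RPKM. NTC embryos went from 215, 266 and 261 RPKM at the 2-cell stage to 6.48, 12.3 and 23.1 RPKM at the 4-cell stage, and NTM embryos from 159, 161 and 141 to 2.83, 2.25 and 0.268 RPKM. The 2-cell and 4-cell ranges lay far apart in each type, and the NTC 4-cell values were the highest of the 4-cell stage. The falls were 94.2-fold in vivo (log2 fold change −5.93, SE 0.45, adjusted p = 6.73e-05), 17.7-fold in NTC (−4.21, SE 0.46, adjusted p = 3.95e-04) and 86.0-fold in NTM embryos (−5.94, SE 0.63, adjusted p = 6.56e-04).

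Cnot6 had no called change at any step in any type. Its in vivo libraries held 12.4, 14.6 and 13.3 RPKM at the 1-cell stage, 13.2, 15.7 and 3.11 RPKM at the 2-cell stage and 4.95, 2.85 and 4.28 RPKM at the 4-cell stage. NTC 4-cell libraries held 3.55, 24.0 and 13.2 RPKM and NTM 4-cell libraries 24.0, 65.6 and 11.9 RPKM. The libraries of a group often differed more than the group means did, and all 19 pairs of neighbours in the order of the 20 group means had overlapping ranges.

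Set against its paralog, Cnot6l made up 89.8 to 94.3% of the RPKM of the pair in the 6 groups of the 1-cell and 2-cell stages. At the 4-cell stage its share was 30.2% ± 16.1 (SD, n = 3) in vivo, 54.1% ± 17.5 for NTC and 5.35% ± 4.51 for NTM embryos. The ratios below are of RPKM + 1, so they still move a little with the scaling of a library where levels are low. The log2 ratio of Cnot6l to Cnot6 changed by −4.87 from the 2-cell to the 4-cell stage as a mean over the 3 types, with −4.93 in vivo, −3.15 for NTC and −6.54 for NTM embryos (two-sided exact permutation test within types, p = 0.00025, the smallest it can give, adjusted p = 0.001 over 8 ratio tests). A pseudocount of 0.1 gave −5.35. At the 4-cell stage itself the NT embryos differed from the in vivo embryos by −0.74 in this ratio, with overlapping ranges (exact permutation p = 0.536, adjusted p = 0.536).

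Cnot7, of the CAF1 pair, fell in all 3 types from the 2-cell to the 4-cell stage. In vivo libraries held 59.7, 107 and 92.7 RPKM at the 2-cell stage and 20.9, 33.1 and 27.1 RPKM at the 4-cell stage. NTC libraries held 93.0, 83.1 and 76.1 RPKM and then 6.03, 8.73 and 4.62 RPKM, and NTM libraries 64.2, 50.6 and 83.9 RPKM and then 5.46, 7.30 and 8.46 RPKM. All 2-cell values lay above all 4-cell values, and the in vivo 4-cell values lay above all 6 NT 4-cell values. The fall was 3.19-fold in vivo (log2 fold change −1.62, SE 0.37, adjusted p = 0.00888), 13.0-fold in NTC (−3.54, SE 0.40, adjusted p = 4.11e-04) and 9.36-fold in NTM embryos (−3.05, SE 0.56, adjusted p = 0.00514). Exons of Cnot7 share 247 bases with Zdhhc2 on the other strand.

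Cnot8 stayed at a high level through the early cleavages. In vivo libraries held 102.7, 49.5 and 115 RPKM at the 2-cell stage, 101, 169 and 189 RPKM at the 4-cell stage and 53.8, 41.1 and 70.7 RPKM at the 8-cell stage. NTC libraries held 63.5, 201 and 84.6 RPKM and then 184, 133 and 129 RPKM at the 2-cell and 4-cell stages, with NTM libraries at 184, 53.6 and 124 RPKM and then 110, 151 and 85.6 RPKM. The 2-cell and 4-cell ranges overlapped in each type and no 2-cell to 4-cell change was called. The in vivo difference between the 4-cell and 8-cell stages was called (−1.44, SE 0.33, adjusted p = 0.01003), at a step where the median of all tested genes was −1.05 and the mitochondrial share was higher in each 8-cell library than in each 4-cell library. Scaling libraries by the median ratio of their genes in place of total reads brought it to −0.02 (adjusted p = 0.971), and scaling to nuclear reads alone, without mitochondrial genes, to −0.87 (adjusted p = 0.0916).

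**Figure D2:**
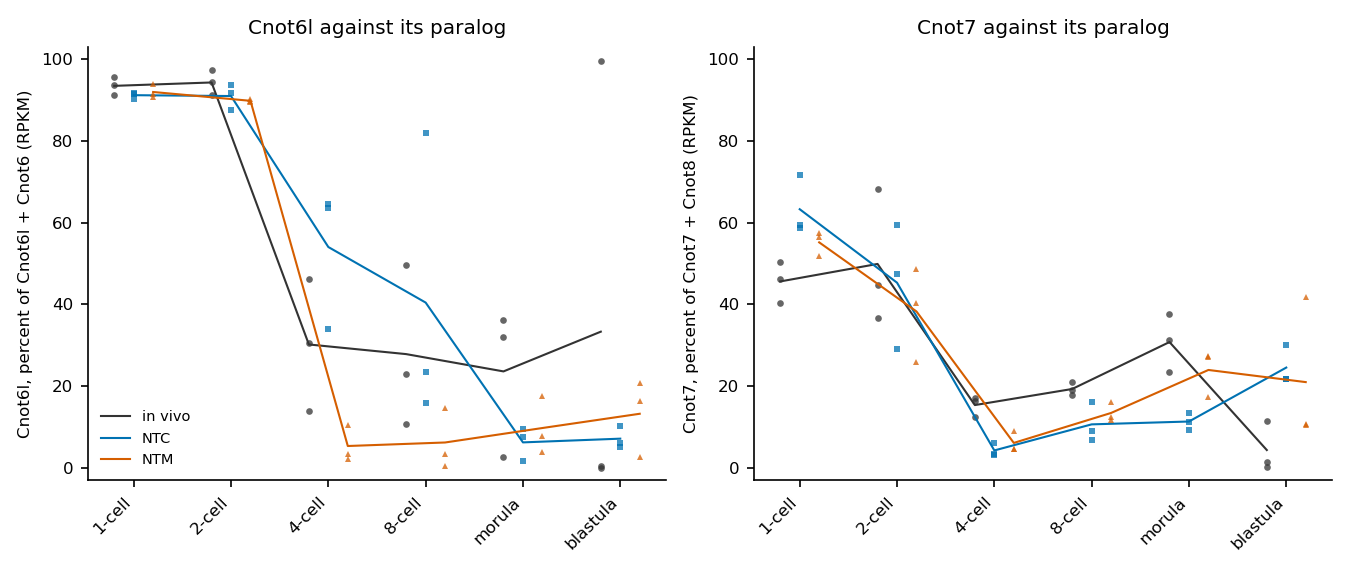
Share of the summed RPKM of a paralog pair held by Cnot6l (left) and Cnot7 (right), in percent, by stage, with a point for each library and a line through group means for in vivo, NTC and NTM embryos. Cnot6l held 89.8 to 94.3% on average until the 2-cell stage, and the Cnot7 share dropped to 4.27% in NTC and 6.11% in NTM 4-cell embryos against 15.4% in vivo.

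Cnot7 made up 49.9% ± 16.4 (SD, n = 3) of the Cnot7 and Cnot8 RPKM in in vivo 2-cell embryos, 45.3% ± 15.2 in NTC and 38.3% ± 11.5 in NTM 2-cell embryos. At the 4-cell stage the shares were 15.4% ± 2.46, 4.27% ± 1.65 and 6.11% ± 2.50. The mean change of the log2 ratio over the types was −3.201 (two-sided exact permutation test within types, p = 0.00025, the smallest it can give, adjusted p = 0.001). NT 4-cell embryos differed from in vivo 4-cell embryos by −1.66 in this log2 ratio, with the in vivo share at 12.6 to 17.2% and the NT shares at 3.17 to 8.995% (exact permutation p = 0.0119, the smallest that 84 arrangements can give, adjusted p = 0.0238). Without the libraries of 1 replicate number the difference was −1.93 to −1.39, at adjusted p from 0.107 to 0.119, where so few libraries cannot pass the threshold.

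Cnot1, the scaffold, had its highest in vivo level at the 4-cell stage. In vivo libraries held 0.0342, 5.50 and 3.82 RPKM at the 1-cell stage, where the first value is 3 reads, 8.48, 12.6 and 7.29 RPKM at the 2-cell stage, 49.1, 42.9 and 45.4 RPKM at the 4-cell stage and 11.6, 7.31 and 1.21 RPKM at the 8-cell stage. The 4-cell libraries lay close together and above those of every other group. Cnot1 rose 4.84-fold from the 2-cell stage (log2 fold change 2.19, SE 0.35, adjusted p = 0.00165) and fell 6.83-fold to the 8-cell stage (−2.93, SE 0.62, adjusted p = 0.00683). The fall came with a median of −1.05 over all tested genes and was −1.66 under median-ratio scaling (adjusted p = 0.0632). Exons of Cnot1 share 132 bases with an antisense gene, 4930513N10Rik.

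NT embryos held Cnot1 at 2.27, 9.70 and 7.77 RPKM (NTC) and 13.3, 16.2 and 4.59 RPKM (NTM) at the 2-cell stage. At the 4-cell stage NTC libraries held 24.7, 11.6 and 9.75 RPKM and NTM libraries 5.78, 16.9 and 26.7 RPKM. Neither change was called, with log2 fold changes of 1.17 (SE 0.60, adjusted p = 0.158) and 0.43 (SE 0.77, adjusted p = 0.675). The steps themselves were not shown to differ from the in vivo step, at −1.02 (adjusted p = 0.393) for NTC and −1.76 (adjusted p = 0.233) for NTM embryos.

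PAN2 is the nuclease and PAN3 the adaptor of the other deadenylase. Pan2 libraries held 10.8, 38.4 and 52.0 RPKM in vivo, 11.9, 12.6 and 21.6 RPKM in NTC and 27.7, 28.3 and 38.5 RPKM in NTM embryos at the 2-cell stage. At the 4-cell stage they held 6.10, 4.72 and 4.199 RPKM in vivo, 2.00, 1.18 and 4.89 RPKM in NTC and 10.8, 1.38 and 6.55 RPKM in NTM embryos. The ranges did not overlap within a type, and Pan2 fell in each, by a log2 fold change of −2.29 in vivo (SE 0.60, adjusted p = 0.0148), −2.23 for NTC (SE 0.53, adjusted p = 0.0120) and −2.43 for NTM embryos (SE 0.73, adjusted p = 0.0381). Each of the 3 calls depended on single libraries. The in vivo call was lost without 4-cell library 2 or 3 (adjusted p = 0.0605 and 0.0645), the NTC call without 2-cell library 3 (adjusted p = 0.0513), and the NTM call without any of 5 of its 6 libraries (adjusted p from 0.0688 to 0.110), with nuclear reads alone (0.0778), with a pseudocount of 0.1 (0.0604) and without the filter (0.0625).

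Pan3 was low at all stages. In vivo libraries held 0.422, 3.57 and 3.95 RPKM at the 1-cell stage, 8.22, 13.0 and 7.12 RPKM at the 2-cell stage, 2.35, 2.02 and 2.29 RPKM at the 4-cell stage and 0.168, 0.155 and 0.127 RPKM at the 8-cell stage. From the 2-cell stage on each of these stages lay below the one before it without overlap. It fell at the 2-cell to 4-cell step (−1.66, SE 0.37, adjusted p = 0.00723) and at the 4-cell to 8-cell step (−1.48, SE 0.34, adjusted p = 0.00918), the latter being −0.89 under median-ratio scaling (adjusted p = 0.0802). NTC libraries went from 6.20, 11.5 and 8.92 RPKM to 0.287, 0.260 and 2.25 RPKM (−2.47, SE 0.56, adjusted p = 0.00917). NTM libraries went from 14.0, 9.32 and 4.54 RPKM to 0.0423, 1.46 and 2.21 RPKM, also without overlap, but missed the threshold (−2.24, SE 0.72, adjusted p = 0.0510).

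At the last stage Cnot6l, Cnot7 and Pan2 were spread widely among in vivo libraries, whereas Pan3 ran from 0.0938 to 0.105 RPKM and Cnot1 from 2.51 to 6.94 RPKM. In vivo blastula libraries held Cnot6l at 34.2, 0.0113 and 0 RPKM, Cnot7 at 15.6, 0.281 and 0.299 RPKM, and Pan2 at 0.0858, 12.2 and 0.0196 RPKM. In each case 1 library was high and the others were near 0, and the high library was library 1 for Cnot6l and Cnot7 but library 2 for Pan2. The same genes lay closer together in NTC blastulae, with Cnot6l at 3.07, 1.48 and 0.968 RPKM, Cnot7 at 8.39, 13.0 and 16.7 RPKM and Pan2 at 4.14, 3.12 and 2.60 RPKM. The in vivo blastula libraries had only 7730 to 7808 genes above 0. NTC blastula libraries had 11771 to 13000 and NTM blastula libraries 11498 to 13568. The part of this difference in the values of the members was not tested. Cnot6 held 0.116, 3.31 and 5.18 RPKM in in vivo, 27.1, 22.6 and 18.01 RPKM in NTC and 19.99, 16.5 and 33.7 RPKM in NTM blastulae. The ranges of Cnot6 in the NT types lay above the in vivo range, but neither difference was called, at 2.91 for NTC (adjusted p = 0.0601) and 2.91 for NTM embryos (adjusted p = 0.0852).

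In the donor cells Cnot8 had the highest mean of the members in both groups, with 164, 78.4 and 61.5 RPKM in CCs and 88.95, 37.7 and 69.2 RPKM in MEFs, where Zfp36l2 exceeded it in library 2. Cnot7 held 32.1, 27.0 and 15.8 RPKM in CCs and 5.63, 6.10 and 0.830 RPKM in MEFs, and Zfp36l2 held 2.09, 18.3 and 7.41 RPKM in CCs and 38.6, 44.4 and 24.4 RPKM in MEFs. The 2 donors did not overlap in these 2 genes, with Cnot7 higher in CCs and Zfp36l2 higher in MEFs. Cnot6l and Btg4 did not overlap either, both being higher in CCs. Cnot6l ran from 3.05 to 6.37 RPKM in CCs and from 0.152 to 2.40 RPKM in MEFs. Btg4 ran from 5.003 to 6.12 RPKM in CCs and from 0 to 4.88 RPKM in MEFs. No test of the donors was made, and the share of all genes without overlap between them was not counted. Pabpn1l was at or below 0.193 RPKM in every donor library.

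**Figure D3:**
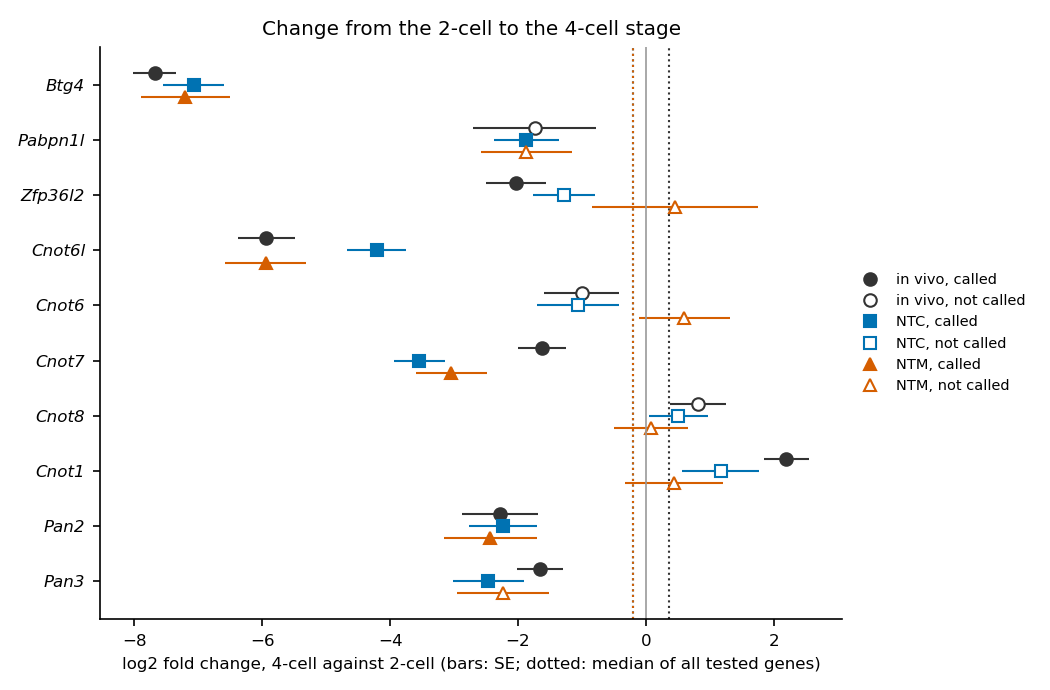
Log2 fold change of the 10 factors from the 2-cell to the 4-cell stage in in vivo, NTC and NTM embryos, with the SE as a bar, filled symbols for called changes and a dotted line at the median of all tested genes of each type. Btg4, Cnot6l, Cnot7 and Pan2 were called lower in all 3 types, and Cnot1 was called higher in vivo.

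Across the 10 members, the step from 2 to 4 cells was where most of the change lay. In vivo 6 members were called lower and 1 higher, where 20.8% of all tested genes were called lower and 31.4% higher, 52.2% in all. NTC embryos had 6 called, all lower, where 36.6% of all genes were called and 20.1% were lower. NTM embryos had 4, all lower, where the shares were 26.4% and 14.3%. Btg4, Cnot6l, Cnot7 and Pan2 were called lower in all 3 types, Pan3 in 2, Zfp36l2 and Pabpn1l in 1 each, and Cnot6, Cnot8 and Cnot1 in none. The median change of all tested genes was 0.36 in vivo, −0.20 for NTC and −0.20 for NTM embryos. It was 0.24, −0.32 and −0.30 under median-ratio scaling, and 0.33, 0.06 and 0.10 with nuclear reads alone.

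At the 1-cell to 2-cell step no member was called in vivo, where 0 of 10854 genes were and 0 members had an unadjusted p under 0.05. In NTC embryos 2 members were called, Zfp36l2 higher and Pabpn1l lower, where 13.5% of all genes were called, 4.53% higher and 8.95% lower. Btg4 was at 0.94 there (SE 0.15, adjusted p = 0.00534), past the threshold on p but not that on the fold. In NTM embryos Btg4 (1.07, SE 0.27, adjusted p = 0.0392) was called higher and Pabpn1l lower, where 9.4% of all genes were called, 2.72% higher and 6.68% lower. The Btg4 call was lost when 5 of the 6 libraries were left out in turn, with a lowest value of 0.79. Tests of the difference from the in vivo step called 0 members for NTC and 0 for NTM embryos, where 0.0256% and 0.204% of all genes were called, with 3 and 0 members at an unadjusted p under 0.05.

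Later steps held few calls. In vivo 4 members were called from 4 to 8 cells, Zfp36l2 higher and Cnot8, Cnot1 and Pan3 lower, where 43.7% of all genes were called, 4.4% higher and 39.3% lower. Under median-ratio scaling the calls over all genes were 42.9% higher, against 10.1% higher as deposited. NTM embryos had 1, Btg4, from 4 to 8 cells, where 0.363% of all genes were called and 0.187% were lower. NTC embryos had 1, Zfp36l2, from morula to blastula, where the share was 7.16% and 4.54% were higher. No member was called at the steps from 8 cells to morula (0.0116% of all genes in vivo, 0% in both NT types), from morula to blastula in vivo (0.801%) or in NTM embryos (4.22%), or from 4 to 8 cells in NTC embryos (0.0564%), and by limma at most 2 members had an unadjusted p under 0.05 in any of these comparisons.

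Calls between NT and in vivo embryos lay mostly at the 4-cell stage, for the members as for all genes. There 4 members were called between NTC and in vivo embryos (27.8% of all genes, 7.4% higher and 20.4% lower in NTC), 2 in each direction. Between NTM and in vivo embryos 2 were called (21.1% of all genes, 3.33% higher and 17.8% lower in NTM), 1 in each direction. Cnot7 was lower in both NT types, at −1.92 (SE 0.37, adjusted p = 0.00556) for NTC and −1.79 (SE 0.45, adjusted p = 0.0262) for NTM embryos. The NTC value passed the threshold under every alternative, at −1.49 under median-ratio scaling and −1.52 with nuclear reads alone. That of NTM embryos was −1.07 (adjusted p = 0.145) and −1.33 (adjusted p = 0.0813) under these scalings, and it was also lost without any 1 of the in vivo libraries (adjusted p from 0.0605 to 0.111) and with a replicate block (0.0661). The median of all tested genes in the 2 comparisons was −0.39 and −0.69, −0.03 and −0.11 under median-ratio scaling, and −0.06 and −0.38 with nuclear reads alone. Of the calls over all genes, 26.6% and 15.8% were higher in NT embryos as deposited and 41.7% and 37.7% under median-ratio scaling. Mitochondrial reads were more abundant in every NT library than in every in vivo library of this stage, and their part was not tested beyond these scalings.

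Zfp36l2 was higher in NTC than in in vivo 4-cell embryos, at 10.2, 34.0 and 25.9 RPKM against 1.75, 2.60 and 1.15 RPKM (log2 fold change 2.98, SE 0.51, adjusted p = 0.00307), and passed under every alternative. In NTM embryos library 3, with 1 read, kept the difference from being called, and without that library it was 3.56 (adjusted p = 0.00459). Cnot6l was also higher in NTC 4-cell embryos (2.34, SE 0.55, adjusted p = 0.0133), though not without in vivo library 3 (2.02, adjusted p = 0.0649), whereas NTM libraries spanned the in vivo values. Cnot6 was higher in NTM 4-cell embryos (2.49, SE 0.66, adjusted p = 0.0324), which was lost without any 1 of the in vivo libraries (adjusted p from 0.0924 to 0.123), without NTM library 1 (0.0575) and without the filter (0.0652).

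Cnot1 was lower in NTC than in in vivo 4-cell embryos (−1.62, SE 0.39, adjusted p = 0.0140), with each of the 6 NT libraries below each of the 3 in vivo libraries. This call was lost under median-ratio scaling (−1.17, adjusted p = 0.0648), with nuclear reads alone (−1.18, adjusted p = 0.0582), in 1 fit over 20 groups (adjusted p = 0.0935) and without any in vivo library (adjusted p from 0.0545 to 0.0605). In NTM embryos the difference was −1.64 (adjusted p = 0.0762), and −2.08 (adjusted p = 0.0287) without library 3.

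**Figure D4:**
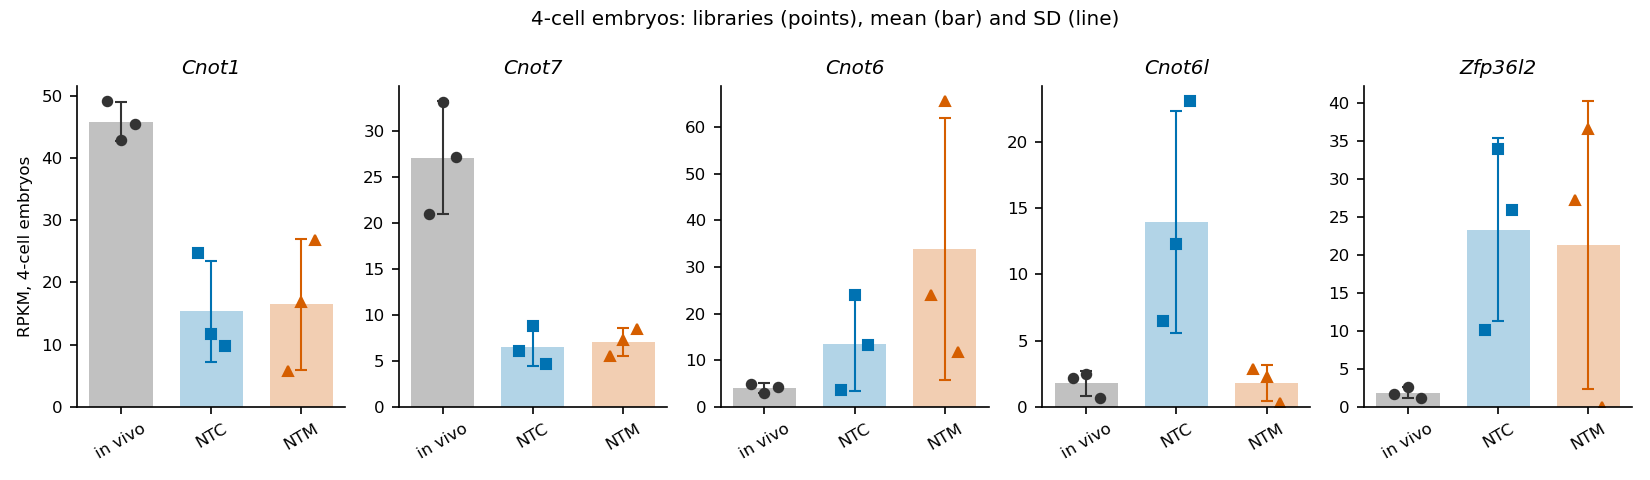
RPKM of 5 members in in vivo, NTC and NTM 4-cell embryos, with a point for each of the 3 libraries, a bar for the mean and a line for the SD, each panel on its own axis from 0. Cnot1 and Cnot7 were higher in all in vivo libraries than in all NT libraries, and Zfp36l2 was higher in NTC than in in vivo libraries.

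A direct test of the 2-cell to 4-cell step found 1 member, Cnot7, that fell further in NTC than in in vivo embryos, with a difference of −1.92 (SE 0.53, adjusted p = 0.0281), where 14.3% of all genes were called and 12% were lower. It was lost under median-ratio scaling (−1.54, adjusted p = 0.110), with nuclear reads alone (−1.56, adjusted p = 0.0914), in 1 fit over all groups (adjusted p = 0.0929) and without in vivo 2-cell library 1, in vivo 4-cell library 2 or 3, NTC 2-cell library 1 or 2 or NTC 4-cell library 3 (adjusted p from 0.0518 to 0.0743). For NTM embryos no member was called, against 9.91% of all genes, 1 had an unadjusted p under 0.05, and Cnot7 was at −1.42 (adjusted p = 0.182).

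NTM and NTC embryos, which differ in their donor nucleus, had called members at the 1-cell stage only, 4 of them, where 19.8% of all genes were called, 5.64% higher and 14.2% lower in NTM embryos. At the other stages 0 to 0.0507% of all genes and 0 members were called between these types by limma, with 0 to 3 members at an unadjusted p under 0.05. Pabpn1l was lower in NTM embryos (log2 fold change −1.28, SE 0.22, adjusted p = 0.00471), and Zfp36l2, at 0.560, 1.36 and 2.81 RPKM against 4.65, 4.82 and 5.04 RPKM, was lower too (−1.27, SE 0.40, adjusted p = 0.0473). Cnot8 was higher, at 142, 86.8 and 115 RPKM against 57.3, 56.5 and 27.7 RPKM (1.31, SE 0.31, adjusted p = 0.0177), as was Pan2, at 28.8, 16.9 and 31.9 RPKM against 8.95, 11.2 and 9.33 RPKM (1.27, SE 0.29, adjusted p = 0.0149). In this comparison 42.1% of all tested genes and 8 of the 10 members had ranges without overlap, these 4 genes among them. In 1 fit over 20 groups none of the 4 was called (adjusted p from 0.202 to 0.692). Leaving out single libraries ended the Zfp36l2 call in all cases but NTM library 3 (adjusted p from 0.0726 to 0.142), the Pan2 call without NTC library 1 or 3 (adjusted p = 0.0526 and 0.0613), and the Cnot8 call without NTC library 3, where it was 0.97, or NTM library 1 (adjusted p = 0.0541). The Zfp36l2 call was also lost under median-ratio scaling (−1.15, adjusted p = 0.0648), with a pseudocount of 0.1 (0.0609), without the filter (0.113) and with a replicate block (0.0647), and the Cnot8 call without the filter (0.0572). Btg4 (0.84, adjusted p = 0.00956) and Cnot7 (0.82, adjusted p = 0.0119) passed the p threshold but not that of the fold.

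Between NT and in vivo 1-cell embryos no member was called, with 1.16% (NTC) and 1.28% (NTM) of all genes called and 5 and 0 members at an unadjusted p under 0.05. Without in vivo 1-cell library 1, the one that stood apart, 3 members were called between NTC and in vivo embryos: Pabpn1l at 1.17, Cnot8 at −1.50 and Pan2 at −1.42. The share of all genes called in that fit was not counted, and the 1.16% belongs to the fit with all libraries. At the 2-cell stage no member was called in any of the 3 comparisons of types, where 0.152% (NTC against in vivo), 0.141% (NTM against in vivo) and 0% of all genes were called. At the 8-cell stage Btg4 was the 1 member called, between NTM and in vivo embryos, where 2.02% of all genes were called and 0.825% were lower, and none was called for NTC embryos (1.46%). The comparisons with in vivo morulae called none (0.0321% of all genes for NTC and 0.168% for NTM embryos), nor did those with in vivo blastulae (9.46% and 0.746%). In each comparison with in vivo embryos at the 2-cell, morula and blastula stages, and for NTC at the 8-cell stage, 1 member had an unadjusted p under 0.05 by limma.

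The wider pathway is shown for the in vivo 2-cell to 4-cell step, with lists that were drawn up with earlier results of these data known. Over all tested genes 52.2% were called at this step, 20.8% lower and 31.4% higher, and a list whose shares lie near these does not stand out. Of 17 tested maternal mRNAs, products of the oocyte such as zona and subcortical complex genes, 15 were called lower and 0 higher, with a median of −4.72 against 0.36 for all genes. The list holds Zp3, Gdf9 and Bmp15, which also served as oocyte markers. NTC embryos had 15 of 17 called lower, against 20.1% of all genes, and NTM embryos 12 of 17, against 14.3%, with medians of −3.62 and −3.88. The log2 fold change was −9.78 for Bcl2l10, −7.96 for Bmp15, an oocyte growth factor, −6.66 for Ooep and −6.60 for Oosp1, beside −7.67 for Btg4.

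Genes that store or stabilise oocyte mRNA went the same way, with 4 of 6 called lower and a median of −3.42. The values were −4.84 for Dazl, −4.12 for Cpeb1, which encodes the CPE-binding protein, −3.82 for Zar1 and −2.44 for Zar1l. NTC embryos had all 6 called lower and NTM embryos 3, Dazl, Ybx2 and Zar1. Of 10 tested genes of decapping and 5′ to 3′ decay, 5 were called lower and 1 higher, with a median of −1.37. The share called in both directions together was near the 52.2% of all genes. By direction it was not, as 20.8% of all genes were called lower and 31.4% higher. The values were −4.42 for Dcp1a, −2.98 for Dcp2, the decapping enzyme, −2.75 for Eif4enif1, −2.30 for Patl2 and −1.85 for Edc4. Edc3 rose by 1.49, and it, Edc4 and Ybx2 were named after their values were seen. Dcp1a and Dcp2 were called lower in NTC and NTM embryos as well, as the only 2 in NTM embryos.

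The mRNAs of the poly(A)-binding proteins PABPC1 and PABPC1L changed in opposite directions. Pabpc1, the common form, rose in each type, with log2 fold changes of 4.12 in vivo, 3.58 for NTC and 4.33 for NTM embryos. Pabpc1l, the oocyte form, fell in each, with −3.89, −2.76 and −4.04 in the same order, and Pabpc4 and Pabpn1 were not called in vivo. Of the other 7 CCR4-NOT subunits tested, Cnot10 rose by 3.54, Cnot11 had −4.59 and Cnot4 −2.56, both called lower, and the other 4 were not called, with a median of 0.07. Cnot4 was called lower in NTC and NTM embryos too. Relatives of BTG4 split, with 3 called of 5: Btg1 at 3.34, Btg3 at 1.36 and Tob2 at −2.79. The shares called in this list and among the CCR4-NOT subunits were near the 52.2% of all genes.

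Other deadenylases had 2 called higher and 2 lower of 7, again near the share of all genes: Pnldc1 at 5.15, Toe1 at 2.55, Angel2 at −5.34 and Angel1 at −2.29. Among factors that bring deadenylases to mRNAs, Ythdf2 was called higher at 3.50, and Tnrc6b at −2.13 and Tnrc6c at −1.79 were called lower. Of the ZFP36 family only Zfp36 had enough reads to be tested beside Zfp36l2, and it rose by 3.49, while Zfp36l1 was at or below 0.962 RPKM in every embryo library. None of 3 uridylation and 3′ to 5′ decay genes was called.

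**Figure D5:**
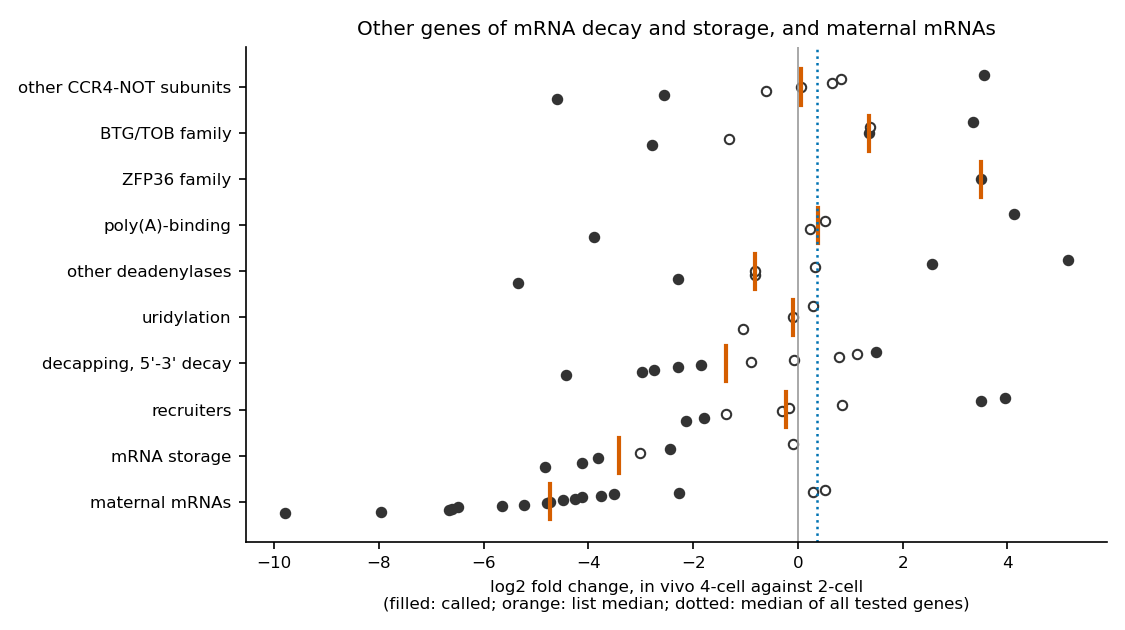
Log2 fold change from the in vivo 2-cell to 4-cell stage for the tested genes of 10 lists, filled where called, with an orange line at the median of each list and a dotted line at the median of all tested genes (0.36). Maternal mRNAs and storage factors lie to the left, with medians of −4.72 and −3.42, and the other lists spread to both sides.

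Pabpn1l was also set against its somatic relative Pabpn1 within libraries. The log2 ratio changed by −1.67 from the 2-cell to the 4-cell stage (two-sided exact permutation test within types, p = 0.00425, adjusted p = 0.0113). Its size rests on the pseudocount, since Pabpn1l was at 0 in most 4-cell libraries, and with a pseudocount of 0.1 it was −4.00 (adjusted p = 0.00133). Between NT and in vivo 4-cell embryos the ratio differed by −1.24 with overlapping ranges (exact permutation p = 0.155, adjusted p = 0.177), and by −2.66 with a pseudocount of 0.1 (adjusted p = 0.111). Leaving out 1 replicate number gave for the change between stages −2.37 to −1.17, at adjusted p from 0.0247 to 0.119. The log2 ratio of Zfp36l2 to Zfp36l1 changed by −0.99 (exact permutation p = 0.141, adjusted p = 0.177), or −1.72 with a pseudocount of 0.1, and was 2.40 higher in NT 4-cell embryos (exact permutation p = 0.0952, adjusted p = 0.152), neither past the threshold.

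The genes whose group means followed a member most closely were looked for among 12595 genes over the 18 embryo groups, as a description of groups that share stages and libraries. For Btg4 they were Obox5 (Pearson r = 0.991), Gm2042 (0.991) and Accsl (0.990), and for Cnot6l Usp28 (0.987), Hmces (0.985) and Gm11884 (0.982). Pabpn1l lay nearest to Plcl1 (0.985), Sh3gl2 (0.981) and C130060K24Rik (0.981). Cnot1 had weaker matches in Rrp7a (0.887), Cactin (0.885) and Lsg1 (0.866), and Zfp36l2 had its in mt-Co1 (0.824), mt-Nd4 (0.787) and Gm10175 (0.759), so its group means moved with those of mitochondrial mRNAs. Among the members themselves Btg4 lay close to Pan2 (0.937), Cnot6l (0.930), Cnot7 (0.897) and Pan3 (0.897), and had a negative value with Zfp36l2 (−0.405).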

How the data were processed

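Single embryos and donor cells were sequenced, and the authors deposited 1 table of RPKM values (reads scaled by exon length and depth). Their methods name TopHat, Bowtie2 and HTSeq, and the submitters' processing notes name Bowtie 0.12.2 and mm8; filters and strand were not given in the sources used here. Amplification by PCR had no molecular identifiers, so floors and intervals cover counting error only. RPKM steps gave whole reads and depth. All sample columns were used (0 unused). The exon length implied by the steps matched GENCODE M21 for 6 members and was shorter for Btg4, Pabpn1l, Cnot1 and Pan2.

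Pairs of groups were compared with limma 3.58.1 (R 4.3.3; lmFit, eBayes with trend) on log2(RPKM + 1), leaving out genes whose mean RPKM was below 0.5, with Benjamini-Hochberg adjustment over all tested genes and calls at an adjusted p of 0.05 and a log2 fold change of 1. Fold changes on this scale are understated for low genes. There were 33 pairwise comparisons and 4 tests of a difference between steps, plus 8 two-sided exact permutation tests of paralog ratios (Python 3.11.15, numpy 2.4.6, pandas 2.3.3, scipy 1.17.1). With 3 libraries against 3, an exact test of 1 gene could not go below 0.1, so none was used for single genes. P-values measure the spread between single embryos.

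All 10 members were named. Of other lists, at most 4 genes called in the in vivo 2-cell to 4-cell comparison were named by size, and the 3 genes nearest in pattern for 5 members. Edc3, Edc4 and Ybx2 were named beyond that rule, after their values were seen. The members and lists were chosen with earlier results of these data known. The scripts were tested on simulated data. Replicate numbers did not pair the libraries. Alternatives were another pseudocount, no filter, median-ratio scaling, nuclear reads alone, 1 fit over 20 groups, a replicate block, no fold threshold and leaving out each library. One result of the wider pathway is not reported here.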

Additional observations from a re-analysis of the deposited data

Results flagged for a closer look

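The fall of Cnot7 from the 2-cell to the 4-cell stage was larger in NTC than in in vivo embryos by −1.92 on the log2 scale in a direct test of the difference (limma, adjusted p = 0.0281), and of the 10 members in the 4 tests of this kind it was the only one to pass. In the same test 14.3% of all tested genes were called and 12% were lower, so 1 of 10 members does not exceed that share. The call was lost under median-ratio scaling and with nuclear reads alone. The step from 4 to 8 cells also ran opposite ways for Cnot7: the group mean changed by −0.99 in vivo and 0.46 in NTM embryos, every library of the later stage lay on the other side of the earlier group, and the difference between the types was 1.45, which was not tested. The median of all tested genes changed by −1.05 at this step in vivo and by −0.23 in NTM embryos, and under median-ratio scaling Cnot7 no longer ran opposite ways, at 0.37 in vivo and 0.73 in NTM embryos, while with nuclear reads alone it was at −0.45 and 0.60. Each group had 3 libraries, too few for a test of single outlying values.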

How the results depend on the processing

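Of 39 called changes of members, 17 passed under every alternative, 22 were lost under at least 1 and 0 changed direction. The counts of members called in the 37 comparisons were within 1.5 times the reported one under a pseudocount of 0.1 and with no fold threshold. Median-ratio scaling gave 2 for in vivo 8-cell against 4-cell, 1 for NTM 2-cell against 1-cell, 1 for NTM against in vivo 4-cell and 0 for the NTC 2-cell to 4-cell interaction. Nuclear reads alone gave 1 for NTM against in vivo 4-cell, 0 for that interaction and 1 for NTC against in vivo blastula. Without the filter the count was 0 for NTC blastula against morula, 0 for NTM 2-cell against 1-cell, 0 for NTM 8-cell against 4-cell, 2 for NTM against NTC 1-cell, 1 for NTM against in vivo 4-cell and 0 for NTM against in vivo 8-cell. One fit over all 20 groups gave 0 for NTC blastula against morula, NTM against NTC 1-cell and the interaction, 2 for NTC against in vivo blastula, and 1 each for in vivo blastula against morula, NTC 8-cell against 4-cell, NTM 2-cell against 1-cell, NTC against in vivo at the 1-cell and 8-cell stages and NTM against in vivo blastula. Fewer libraries enter a fit where one is left out; otherwise the cause was not tested.

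The replicate numbers did not pair the libraries: in 0 of 33 comparisons did every same-numbered pair correlate over 0.1 in its deviations from the group means, and the correlations ran from −0.18 to 0.12. A replicate block changed 3 of 37 counts, to 0 for NTC blastula against morula, 1 for NTM against in vivo 4-cell and 1 for NTC against in vivo 8-cell, and none of the 4 ratio tests it could be run on.

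Leaving out 1 library gave 0 to 1 for NTC 8-cell against 4-cell (0 reported), 0 for NTC blastula against morula (1), 0 to 2 for NTM 2-cell against 1-cell (2), 0 to 1 for NTM 8-cell against 4-cell (1), 0 to 3 for NTC against in vivo 1-cell (0), 1 to 4 for NTM against NTC 1-cell (4), 0 to 1 for NTC against in vivo 2-cell (0), 2 to 5 for NTC against in vivo 4-cell (4), 0 to 4 for NTM against in vivo 4-cell (2), 0 to 1 for NTM against in vivo 8-cell (1), 0 to 1 for NTC against in vivo blastula (0), 0 to 2 for the NTC interaction (1) and 0 to 1 for the NTM interaction from 2 to 4 cells (0). Leaving out 1 replicate number of every group gave −1.93, −1.65 and −1.39 for the Cnot7 to Cnot8 ratio between NT and in vivo 4-cell embryos and −2.37, −1.48 and −1.17 for the change of the Pabpn1l to Pabpn1 ratio.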
